A study of Mus musculus with 40 samples.

Results

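The genes described here are 10 genes of the Notch pathway, taken by name: the ligands Jag1, Jag2 and Dll4, the receptors Notch1, Notch2, Notch3 and Notch4, and the target genes Hes1, Hey1 and Heyl. They are 10 of the 55487 genes in the deposited count table, and all 10 were among the 20297 genes that passed a filter on low counts and were tested. Notch signalling acts between touching cells: a Jagged or Delta-like ligand on the sending cell binds a Notch receptor on its neighbour, proteases then cut the receptor, and the released intracellular part joins the DNA-binding protein RBPJ in the nucleus and switches on Hes and Hey genes. In liver the pathway is best known for bile duct formation, and inherited loss of Jag1 or Notch2 function gives too few bile ducts (Alagille syndrome). Dll4 and Notch4 are known mainly from endothelial cells, and Notch3 from vascular smooth muscle cells, pericytes and activated stellate cells. Notch1 is a receptor of endothelial and many other cells.

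Total RNA of whole liver was sequenced from HNKO mice, which lack Nampt in hepatocytes, and from WT mice, to follow the time course of gene expression on a purified diet. HNKO mice carried floxed Nampt alleles and Cre recombinase driven by the albumin promoter, and the WT mice were floxed littermates. All were females on the C57BL/6JBomTac background, killed after 3, 6, 12 or 21 days of the diet (the labels give these days as the age; the methods of the study give them as days of feeding of adult mice). Of 40 libraries, 38 were used, with 5 HNKO and 5 WT libraries at day 3, 5 and 4 at day 6, 6 and 5 at day 12, and 3 and 5 at day 21. The other 2 libraries, both from HNKO mice at day 21, are described as having failed quality control. Cre from the albumin promoter acts in hepatocytes, so by this design endothelial cells, stellate cells and immune cells of HNKO livers would keep Nampt. Its level by cell type was not measured here. Total counts per library ran from 16151037 to 34720845 in the HNKO groups of days 3 to 12, from 21767223 to 28809772 in the HNKO group of day 21, and from 17638065 to 64181492 in the WT groups.

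Nampt, which encodes the enzyme that turns nicotinamide into the precursor of NAD, was lower in HNKO livers, with an edgeR adjusted p under 0.05 at days 3, 6 and 12 but not at day 21. All levels are CPM, read counts scaled to a common library size with the trimmed mean of M values, given on the log2 scale. At day 3 Nampt stood at 5.14, 5.21, 5.31, 5.35 and 5.38 in HNKO livers and at 5.84, 6.06, 6.15, 6.32 and 6.57 in WT livers. At day 6 it stood at 5.48, 5.55, 5.69, 5.81 and 6.36 in HNKO livers and at 5.99, 6.00, 7.09 and 7.28 in WT livers, so that 1 HNKO library lay above 2 WT libraries. The HNKO groups overlapped with WT at no other day. At day 12 HNKO livers ran from 4.92 over a median of 5.67 to 5.77, and WT livers stood at 5.89, 5.90, 6.11, 6.12 and 7.24. At day 21 HNKO livers stood at 5.55, 5.73 and 6.03 and WT livers at 6.26, 6.43, 6.44, 6.52 and 6.65. The log2 fold change (HNKO minus WT) of Nampt was -0.93 at day 3 (edgeR adjusted p = 0.0193), -0.90 at day 6 (0.0128), -0.82 at day 12 (0.0208) and -0.69 at day 21 (0.161). Averaged over the 4 days it was -0.83 (SE 0.12, edgeR adjusted p = 2.61e-06).

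Levels of different genes were compared only after division by the summed length of each gene's exons. In the 19 WT livers Notch2 had the highest median level, 13.1 CPM per kilobase (8.84 to 16.9), followed by Hes1 at 8.01 (4.13 to 16.1) and Notch1 at 4.38 (2.90 to 5.33). Dll4 had a median of 1.79 CPM per kilobase, Jag1 of 1.67, Notch4 of 0.775, Heyl of 0.535, Notch3 of 0.468, Hey1 of 0.207 and Jag2 of 0.0412. The WT ranges of neighbours in this order overlapped for Notch2 and Hes1, Hes1 and Notch1, Dll4 and Jag1, Notch4 and Heyl, Heyl and Notch3, and Notch3 and Hey1. They did not overlap between Notch1 and Dll4, between Jag1 and Notch4, or between Hey1 and Jag2. Within single WT livers Notch2 was above Hes1 in 15 of 19 and Heyl above Notch3 in 12 of 19. Jag2 and Hey1 rested on few reads, with 1 to 53 counts per library for Jag2 (median 8.50) and 5 to 62 for Hey1, against 1602 to 10521 for Notch2.

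**Figure D1:**
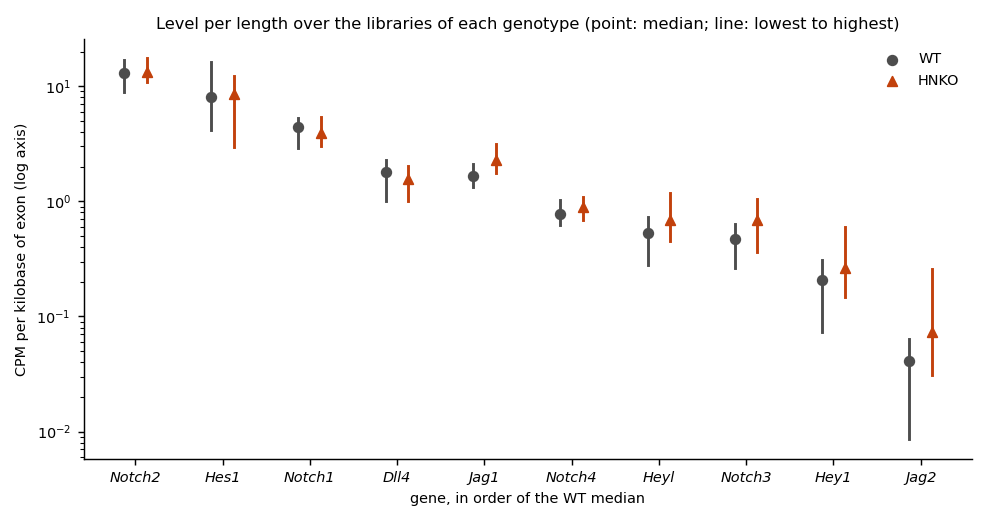
Level per exon length of each gene, in CPM per kilobase on a log axis, over the 19 WT libraries (grey circles) and 19 HNKO libraries (orange triangles); points are medians and lines run from the lowest to the highest library. WT medians run from 13.1 for Notch2 down to 0.0412 for Jag2.

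The genes lie on 6 chromosomes of the GRCm38 assembly. Jag1 (ENSMUSG00000027276.7) lies at chr2:137081456-137116644, Jag2 (ENSMUSG00000002799.6) at chr12:112907819-112929776 and Dll4 (ENSMUSG00000027314.6) at chr2:119325784-119335962. Notch1 (ENSMUSG00000026923.15) lies at chr2:26457903-26516663, Notch2 (ENSMUSG00000027878.11) at chr3:98013527-98150361, Notch3 (ENSMUSG00000038146.8) at chr17:32120820-32166852 and Notch4 (ENSMUSG00000015468.14) at chr17:34564268-34588503. Hes1 (ENSMUSG00000022528.8) lies at chr16:30064384-30067796, Hey1 (ENSMUSG00000040289.8) at chr3:8663359-8667256 and Heyl (ENSMUSG00000032744.4) at chr4:123233556-123249875. The use of the read strand in counting is not stated, which matters where exons overlap another gene on the opposite strand. Such an overlap exists for Notch1 (0610009E02Rik, median 17 counts per library), Notch3 (Gm17276, 6.5 counts) and Dll4 (Gm14207, 7.5 counts), and Notch2 overlaps Gm42820 (46 counts) on its own strand.

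The members that differed between the genotypes were higher in HNKO livers at every day with a call, and most calls fell at day 6. A gene was called when the edgeR quasi-likelihood test gave an adjusted p under 0.05, with p adjusted over the 20297 genes. The libraries hold RNA of all liver cells, so a change in the number of cells of a type and a change in RNA per cell cannot be told apart. At day 3, 1 of 10 members was called (Jag1), against 4.66% of all tested genes in either direction and 2.95% higher in HNKO livers. At day 6, 5 of 10 were called, Jag1, Jag2, Notch2, Notch3 and Notch4, against 12.8% of tested genes in either direction and 8.42% upward. At day 12, 1 of 10 was called (Notch3), against 7.82% of tested genes and 4.56% upward. At day 21 edgeR called 0 of 10, against 3.12% of tested genes; 2 members had an unadjusted p under 0.05 there, and DESeq2 also called 0. Averaged over the 4 days, 7 of 10 were called, all higher in HNKO livers, against 36.4% of tested genes and 19.2% upward. These were the 5 genes of day 6 with Hey1 and Heyl. The members were chosen with earlier results of these data known, so their counts beside these shares do not test the pathway as a set.

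The median log2 fold change of the 10 members was 0.16, 0.54, 0.23 and 0.02 at days 3, 6, 12 and 21, and that of all tested genes lay between -0.01 and 0.01 at each day. Every HNKO library lay above every WT library for 1 member at day 3 (2.31% of tested genes), for 5 members at day 6 (8.08%), for 2 members at day 12 (2.65%) and for 1 member at day 21 (7.25%). No member had every HNKO library below every WT library at any day, against 1.80%, 4.68%, 2.14% and 6.70% of tested genes at days 3, 6, 12 and 21. The days were not shown to differ in the genotype effect: for the interaction of genotype and day edgeR called 0 of 10 members and 0% of tested genes, 1 member (Notch3) had an unadjusted p under 0.05, and DESeq2 called 0 members.

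**Figure D2:**
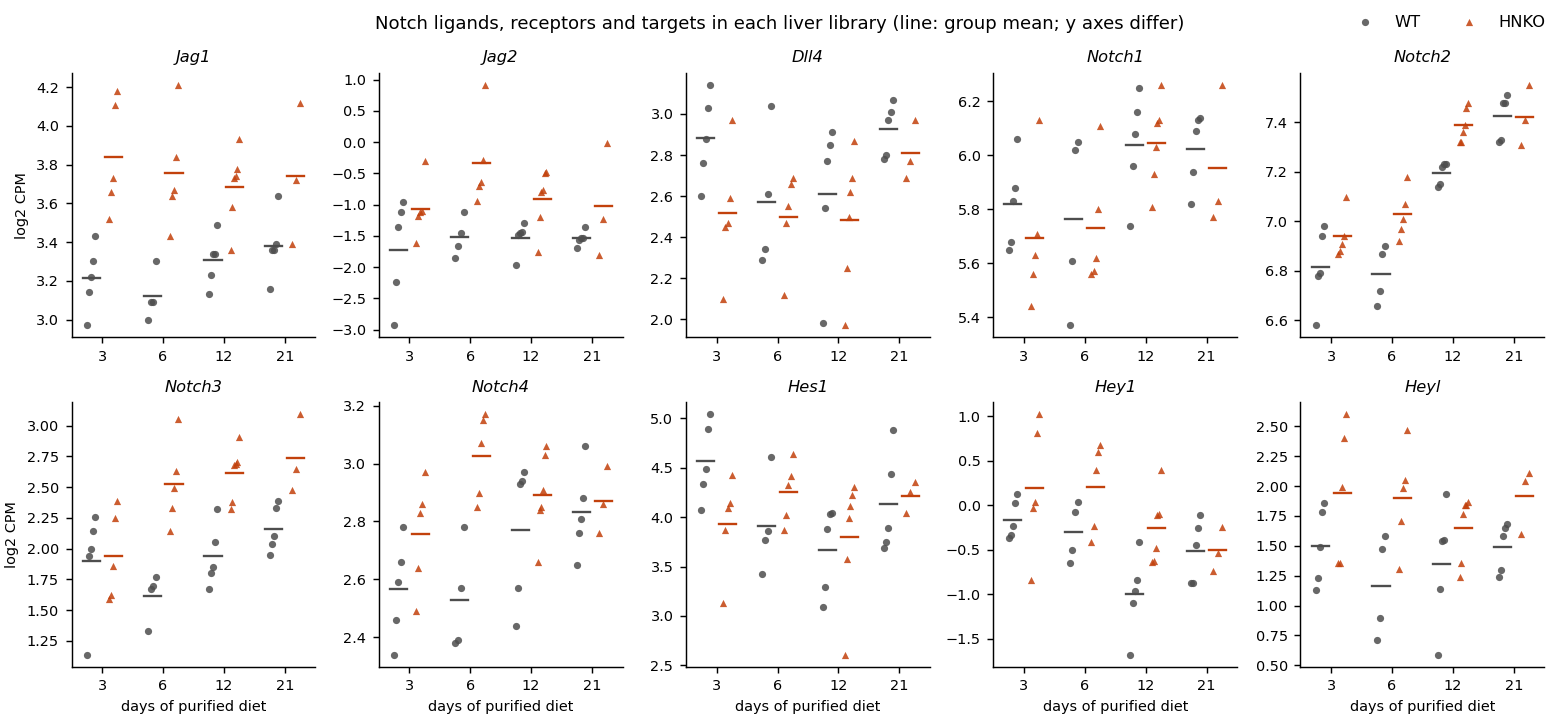
Log2 CPM of the 10 genes in each of 38 libraries by days of purified diet, WT as grey circles and HNKO as orange triangles, with lines at the group means. At day 6 every HNKO library of Jag1, Jag2, Notch2, Notch3 and Notch4 lies above every WT library, for Jag1 between 3.43 and 4.21 against 3.00 to 3.30.

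Jag1, the ligand required for bile duct formation, was higher in HNKO livers from the first day sampled. At day 3 its log2 CPM was 3.52, 3.66, 3.73, 4.11 and 4.18 in HNKO livers and 2.97, 3.14, 3.22, 3.30 and 3.43 in WT livers. At day 6 it was 3.43, 3.64, 3.67, 3.84 and 4.21 in HNKO livers and 3.00, 3.09, 3.09 and 3.30 in WT livers. At both days all 5 HNKO livers lay above all WT livers. The log2 fold change was 0.65 at day 3 (SE 0.14, edgeR adjusted p = 0.00813) and 0.67 at day 6 (SE 0.15, adjusted p = 0.00362). At day 12 HNKO livers ran from 3.36 over a median of 3.74 to 3.93, and WT livers stood at 3.13, 3.23, 3.34, 3.34 and 3.49. At day 21 HNKO livers stood at 3.39, 3.72 and 4.12 and WT livers at 3.16, 3.36, 3.36, 3.39 and 3.64. The groups overlapped at these later days through the lowest HNKO library of each, with 5 of 6 and 2 of 3 HNKO livers above all WT livers. The log2 fold change was 0.39 at both days, with an adjusted p of 0.0687 at day 12 and 0.180 at day 21. Leaving out 1 library of day 21 moved its fold change to between 0.20 and 0.57 (edgeR adjusted p from 0.0534 to 0.857). The day 12 difference was called without HNKO library 11 of that day (0.45, adjusted p = 0.0485). It was also called without HNKO library 23 (0.41, 0.0497), 29 (0.41, 0.0375), 37 (0.41, 0.0428) or 38 (0.41, 0.0470). Those libraries are of other days, so they enter this comparison only through the fit shared by all groups. The day 12 difference was called as well with the series of library numbers as a term of the model (0.37, 0.0486). Averaged over the days Jag1 was 0.52 higher (SE 0.07, adjusted p = 1.44e-06), and it was higher in all 7 comparisons within a day and within a series of library numbers (1 to 21, or 22 to 41), by 0.24 to 0.73.

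Jag2, the other Jagged ligand, was the least abundant member per exon length and had the largest fitted difference of the 10 members at day 6. At day 6 its log2 CPM was -0.94, -0.70, -0.64, -0.29 and 0.91 in HNKO livers and -1.85, -1.66, -1.45 and -1.11 in WT livers. The groups did not overlap, and HNKO library 7, with 53 counts, was the highest. The log2 fold change was 1.52 (SE 0.44, edgeR adjusted p = 0.0202). It was 1.01 without HNKO library 7 (adjusted p = 0.124), 1.40 without WT library 10 (0.0679) and 1.46 without WT library 27 (0.0531), so that the call rested on each of these livers. At day 3 HNKO livers stood at -1.61 to -0.30 and WT livers at -2.93 to -0.96, at day 12 at -1.75 to -0.48 and -1.97 to -1.30, and at day 21 at -1.80 to -0.01 and -1.70 to -1.35. The groups overlapped at these 3 days. The fold changes of days 3, 12 and 21 were 0.60, 0.79 and 0.84 with adjusted p from 0.216 to 0.442, and the last fell to 0.02 without HNKO library 37. Averaged over the days Jag2 was 0.94 higher (SE 0.22, adjusted p = 8.42e-04).

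Dll4, the endothelial ligand that guides vessel sprouting, was called at no day. Its log2 CPM ran from 1.97 to 2.97 in HNKO livers and from 1.98 to 3.14 in WT livers. At day 3 HNKO livers stood at 2.10, 2.45, 2.47, 2.59 and 2.97 and WT livers at 2.60, 2.76, 2.88, 3.03 and 3.14, with 4 of 5 HNKO livers below all WT livers. The log2 fold change was -0.35 at day 3 (SE 0.17, edgeR adjusted p = 0.237) and between -0.14 and -0.09 at the other days. At day 6 it turned from -0.09 to 0.09 without WT library 28 (edgeR adjusted p = 0.822). The average over the days was -0.18 (adjusted p = 0.129). It was called as lower without WT library 16 (-0.21, adjusted p = 0.0485) and with the series of library numbers as a term of the model (-0.22, 0.0187).

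Notch3, the receptor of vascular smooth muscle cells and pericytes, was higher in HNKO livers at days 6 and 12. At day 3 its log2 CPM was 1.59, 1.62, 1.86, 2.25 and 2.39 in HNKO livers and, in WT livers, 1.14 in 1 library and between 1.94 and 2.26 in the other 4, and the groups overlapped over most of their range (log2 fold change 0.03, edgeR adjusted p = 0.956). At day 6 it was 2.14, 2.33, 2.49, 2.63 and 3.05 in HNKO livers and 1.33, 1.67, 1.70 and 1.77 in WT livers. Each HNKO liver lay above each WT liver, and the fitted difference was 0.95 log2 units (SE 0.21, adjusted p = 0.00231). At day 12 HNKO livers ran from 2.32 over a median of 2.69 to 2.91, and WT livers stood at 1.67, 1.80, 1.85, 2.05 and 2.32. The lowest HNKO and the highest WT library stood next to each other without crossing, and the fitted difference was 0.68 log2 units (SE 0.18, adjusted p = 0.0193). This call was lost without HNKO library 13 (0.62, adjusted p = 0.0515), WT library 15 (0.65, 0.0506) or WT library 33 (0.62, 0.0556). At day 21 HNKO livers stood at 2.48, 2.65 and 3.09 and WT livers at 1.95, 2.04, 2.10, 2.33 and 2.39. The groups did not overlap there, but the log2 fold change of 0.61 (SE 0.21) did not pass the test (adjusted p = 0.104). The average over the days was 0.57 (SE 0.10, adjusted p = 3.00e-05), and the interaction with day had an unadjusted p of 0.0162 (adjusted p = 0.996).

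Notch4, a receptor found mostly on endothelial cells, was higher in HNKO livers at day 6. Its log2 CPM was then 2.85, 2.90, 3.07, 3.15 and 3.17 in HNKO livers and 2.38, 2.39, 2.57 and 2.78 in WT livers. The groups did not overlap, and the log2 fold change was 0.50 (SE 0.13, edgeR adjusted p = 0.00780). At day 3 HNKO livers stood at 2.49 to 2.97 and WT livers at 2.34 to 2.78, at day 12 at 2.66 to 3.06 and 2.44 to 2.97, and at day 21 at 2.76 to 2.99 and 2.65 to 3.06. The groups overlapped at these 3 days, with log2 fold changes of 0.20, 0.11 and 0.04 and adjusted p from 0.355 to 0.922. The average over the days was 0.21 (SE 0.06, adjusted p = 0.00664), and it was not called with all 40 libraries (edgeR adjusted p = 0.210).

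Notch2, the receptor partner of Jag1 in bile duct formation, had a small difference between the genotypes and a larger one between the days. At day 6 its log2 CPM was 6.92, 6.97, 7.01, 7.07 and 7.18 in HNKO livers and 6.66, 6.72, 6.87 and 6.90 in WT livers. At day 12 HNKO livers ran from 7.32 over a median of 7.38 to 7.48, and WT livers stood at 7.14, 7.15, 7.22, 7.23 and 7.23. At both days each HNKO liver lay above each WT liver, by a narrow margin. The log2 fold change was 0.24 at day 6 (SE 0.08, edgeR adjusted p = 0.0373) and 0.19 at day 12 (SE 0.07, adjusted p = 0.0767). The day 6 call was lost without HNKO library 7 (adjusted p = 0.0545) or 29 (0.103). It was also lost without WT library 8 (0.147) or 10 (0.111). These libraries are of day 6, and the fold changes were then 0.20 to 0.25. Leaving out WT library 15 (0.0524), 25 (0.0528), 33 (0.0511), 34 (0.0503) or 41 (0.0508) also lost the call, with a fold change of 0.23. Those libraries are of other days, so they enter this comparison only through the fit shared by all groups. The day 12 difference was called without HNKO library 29 (0.21, adjusted p = 0.0460), which is of day 6. It was also called by DESeq2 (0.19, 0.0361) and with at least 10 counts in every library (0.22). At day 3 HNKO livers stood at 6.87 to 7.10 and WT livers at 6.58 to 6.98, and at day 21 at 7.31 to 7.55 and 7.32 to 7.51, and the groups overlapped at both days.

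Notch1, a receptor of endothelial and many other cells, was called at no day. Its log2 CPM ran from 5.44 to 6.26 in HNKO livers and from 5.37 to 6.25 in WT livers, and the groups overlapped at every day. The log2 fold changes lay between -0.11 and 0.01, with edgeR adjusted p from 0.683 to 0.987.

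In edgeR the target genes were called at no single day. Hes1 encodes a repressor of transcription that many signals besides Notch induce. At day 3 its log2 CPM was 3.13, 3.87, 4.09, 4.14 and 4.43 in HNKO livers and 4.07, 4.34, 4.49, 4.89 and 5.04 in WT livers. All 5 HNKO livers lay below the WT median, and the groups overlapped (log2 fold change -0.62, SE 0.27, edgeR adjusted p = 0.180). At the later days the fold change of Hes1 was 0.30, 0.19 and 0.01, and the average over the days was -0.03 (adjusted p = 0.891). Heyl, a repressor related to Hes1 and expressed in vascular smooth muscle, stood at day 6 at 1.31, 1.71, 1.98, 2.05 and 2.47 in HNKO livers and at 0.71, 0.90, 1.47 and 1.58 in WT livers. Of the HNKO livers 4 of 5 lay above all WT livers, and the fitted difference was 0.76 log2 units (SE 0.27, edgeR adjusted p = 0.0546). DESeq2 called it (0.76, adjusted p = 0.0358), as did edgeR with at least 10 counts in every library (0.80). In edgeR it was also called without HNKO library 6 (0.89, adjusted p = 0.0242) or 31 (0.82, 0.0446) or WT library 27 (0.92, 0.0429), all of day 6. The same held without HNKO library 2 (0.77, 0.0449), 3 (0.76, 0.0483), 22 (0.75, 0.0477) or 23 (0.78, 0.0486) or WT library 16 (0.75, 0.0429). Those libraries are of other days, so they enter this comparison only through the fit shared by all groups. Averaged over the days Heyl was 0.49 higher (SE 0.13, adjusted p = 0.00282), but was not called with all 40 libraries (edgeR adjusted p = 0.124). Hey1, the third repressor, ran from -0.84 to 1.02 in HNKO livers and from -1.68 to 0.12 in WT livers. At day 12 all 6 HNKO livers lay above the WT median and 3 above all WT livers (log2 fold change 0.81, SE 0.30, adjusted p = 0.0904). At day 21 the log2 fold change of Hey1 was -0.03 (SE 0.36, adjusted p = 0.980), with 1 of 3 HNKO livers above the WT median. Averaged over the days Hey1 was 0.47 higher (SE 0.16, adjusted p = 0.0201), but was not called with all 40 libraries (edgeR adjusted p = 0.129). Hey1 and Heyl were each higher in all 7 comparisons within a day and a series of library numbers, by 0.15 to 0.90 and by 0.14 to 0.87. Notch2, Notch3, Notch4 and Jag2 were higher in 6 of 7 each, with lowest differences of -0.07, -0.06, -0.04 and -0.07. Hes1 was higher in 4, Notch1 in 2 and Dll4 in 1 of the 7. At day 21 these comparisons set the HNKO libraries against only 2 of the 5 WT libraries.

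**Figure D3:**
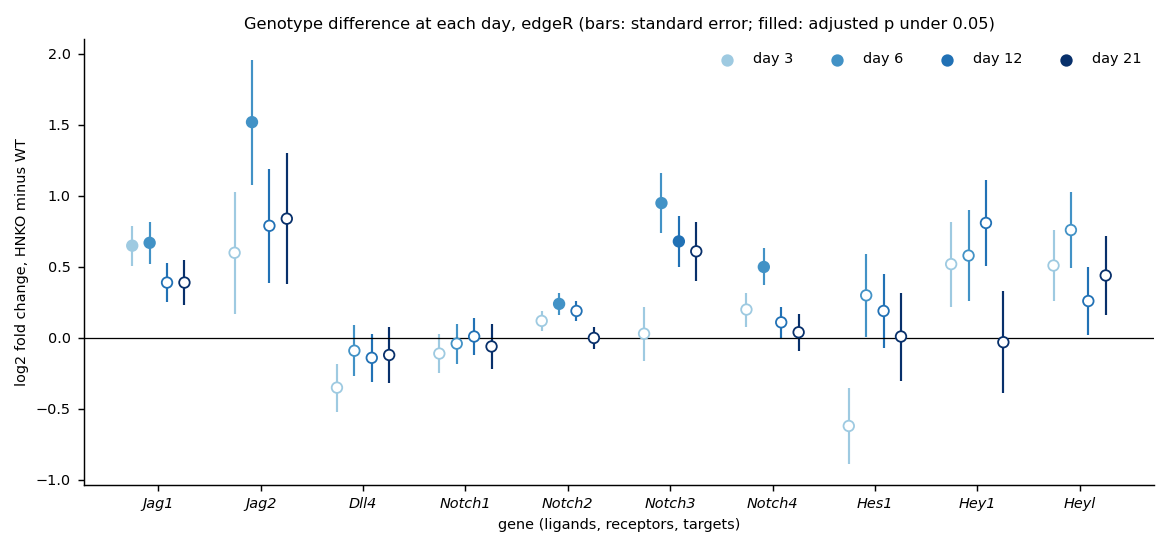
Log2 fold change, HNKO minus WT, of each gene at days 3, 6, 12 and 21 (light to dark blue), with bars of 1 standard error; filled points have an edgeR adjusted p under 0.05. The filled points are Jag1 at days 3 and 6 (0.65 and 0.67), Notch3 at days 6 and 12 (0.95 and 0.68), and Jag2, Notch2 and Notch4 at day 6 (1.52, 0.24 and 0.50).

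Over the days of the diet, 1 of 10 members changed in WT livers, against 5.84% of tested genes, and 2 of 10 in HNKO livers, against 7.90%. Notch2 changed in both. Its mean log2 CPM in WT livers was 6.81 at day 3 (SD 0.16, n = 5), 6.79 at day 6 (SD 0.12, n = 4), 7.19 at day 12 (SD 0.04, n = 5) and 7.42 at day 21 (SD 0.09, n = 5; edgeR adjusted p = 4.75e-07). In HNKO livers the means were 6.94, 7.03, 7.39 and 7.42 (SD 0.09, 0.10, 0.07 and 0.12; adjusted p = 3.81e-05), so that both genotypes were higher at days 12 and 21. Notch3 changed in HNKO livers, with means of 1.94, 2.53, 2.61 and 2.74 (SD 0.36, 0.35, 0.22 and 0.32; adjusted p = 0.0330). In WT livers the means of Notch3 were 1.90, 1.62, 1.94 and 2.16, and the day effect did not pass the test (adjusted p = 0.310).

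Of 60 further genes of the pathway, 51 were tested, and calls went both ways among them. At days 3, 6, 12 and 21 the test called 4, 8, 7 and 3 of the 51, against 4.66%, 12.8%, 7.82% and 3.12% of all tested genes; of the genes called, 2, 6, 4 and 2 had higher levels in HNKO livers. Their median log2 fold change was 0.02, 0.02, 0.01 and 0.04. Averaged over the days 23 of 51 were called, 13 higher and 10 lower, against 36.4% of tested genes. At 1 or more of the 4 days 13 of 51 were called, against 18.7% of tested genes (3787 of 20297), the share to set beside the counts by role that follow. The genes that were not tested had at most 8 counts in any library (Dll3, Dlk1, Dlk2, Dner, Hes2, Hes3, Hes5, Hes7 and Rbpjl); of these Hes5 had 0 counts in all 38 libraries.

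Among the genes that modify the receptor, 1 of 5 sugar-transferring enzymes was called at 1 or more days: Lfng, whose product adds a sugar to Notch and shifts its choice of ligand, was 0.69 higher at day 6 (SE 0.17, edgeR adjusted p = 0.00772). Averaged over the days Rfng was lower (-0.21) and Poglut1 higher (0.14). Of 10 genes for cutting the receptor, 3 were called at 1 or more days (18.7% of all tested genes). Adam10, the protease that makes the ligand-dependent cut, was 0.31 higher at day 6 (adjusted p = 0.0127), with all 5 HNKO livers above all WT livers, and Aph1c, a subunit of gamma secretase, 0.76 higher (adjusted p = 0.0329). Furin, which cuts the receptor during its maturation, was lower at day 6 (-0.33), day 12 (-0.38) and day 21 (-0.73, adjusted p = 0.00210). In the average Aph1b was also called as higher (0.33) and Aph1a (-0.19) and Psen2 (-0.29) as lower.

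Of 19 tested genes of the nuclear complex and its co-regulators, 5 were called at 1 or more days (18.7% of all tested genes). Rbpj itself had log2 fold changes between -0.13 and 0.11 and was not called. Tle4, a co-repressor that Hes proteins recruit, was 0.51 higher at day 6 (SE 0.11, edgeR adjusted p = 0.00224), and Tle3, of the same family, 0.56 higher at day 12 (adjusted p = 0.0235). Ncor1, a co-repressor of nuclear receptors, was lower at day 12 (-0.40, adjusted p = 0.0151). Kat2b, a histone acetyltransferase, was lower at day 3 (-0.35) and day 6 (-0.32). In the average Maml3, a co-activator of the complex, was also higher (0.42) and Snw1 lower (-0.17).

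Of 13 genes for ligand uptake and ubiquitin control, 4 were called at 1 or more days (18.7% of all tested genes). Dtx3, of the Deltex family of ubiquitin ligases, was higher at all 4 days, by 0.69, 0.82, 0.81 and 0.75 (edgeR adjusted p from 0.00795 to 0.0490). Neurl1a, a ubiquitin ligase of the Neuralized family, which acts on Notch ligands, was higher at day 6 (1.69), day 12 (1.32) and day 21 (1.76), with every HNKO liver above every WT liver at these 3 days. Numbl, a relative of the Notch antagonist Numb, was 1.01 higher at day 12 (adjusted p = 0.0163), with 6 of 6 HNKO livers above all WT livers. Dtx3l was lower at day 3 (-0.27) and day 12 (-0.34). In the average Neurl1b was also higher (1.06), and Numb (-0.14) and Itch (-0.20), a ubiquitin ligase, were lower.

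Markers of other cell types moved at the days at which members were called, and their part in the result was not tested. Of all tested genes, 4.66%, 12.8%, 7.82% and 3.12% were called in either direction at days 3, 6, 12 and 21. Upward calls were 2.95%, 8.42% and 4.56% of tested genes at days 3, 6 and 12. These are the shares to set beside the marker counts by day that follow. Of 11 tested cholangiocyte markers, 6 were higher in HNKO livers at days 3, 6 and 12 and 4 at day 21, among them Cftr (log2 fold change 2.57 at day 3 and 3.59 at day 21) and Epcam (1.28 and 1.36). The summed level of the 12 markers listed rests to 52.1% on Aqp1, which endothelial cells also express. At day 6 the sum ran from 7.84 over a median of 8.05 to 8.31 log2 CPM in HNKO livers and from 7.84 over 7.93 to 8.03 in WT livers. At day 12 it ran from 7.99 over 8.01 to 8.70 against 7.74 over 7.81 to 8.01, and at day 21 it stood at 8.15, 8.24 and 8.35 in HNKO livers, all above the 7.69 to 8.12 of WT livers. Cftr had no counts in 1 of 38 libraries.

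Of 12 stellate cell and fibroblast markers, 4, 7, 3 and 4 were higher in HNKO livers at days 3, 6, 12 and 21, and Reln, the most abundant (31.9% of the sum), was lower at day 12 (-0.40). Col1a1, a fibrillar collagen chain, was higher at all 4 days, by 1.84, 4.02, 2.03 and 3.07. The summed level at day 3 ran from 8.92 over a median of 9.58 to 10.56 log2 CPM in HNKO livers and from 9.28 over 9.40 to 9.42 in WT livers. At day 6 it ran from 9.53 over 9.92 to 10.57 against 9.11 over 9.16 to 9.22, at day 12 from 9.13 over 9.48 to 9.94 against 9.15 over 9.25 to 9.44, and at day 21 from 9.31 over 9.89 to 10.43 against 9.10 over 9.24 to 9.33. The SD among HNKO livers was 0.68, 0.44, 0.29 and 0.56 at the 4 days, against 0.06, 0.05, 0.11 and 0.08 among WT livers, so that HNKO livers differed more from each other.

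Of 7 vascular smooth muscle cell and pericyte markers, edgeR called 1 as higher at day 3 (Rgs5, 0.40), 1 at days 6 and 21 (Tagln, 0.93 and 1.11) and 0 at day 12, where 0 had an unadjusted p under 0.05. At day 6 the log2 fold change was above 0 for 6 of 7, with a median of 0.89 and the highest for Acta2 (1.95, adjusted p = 0.0539), and 3 had an unadjusted p under 0.05: Acta2, Tagln and, in the other direction, Mylk (-0.31). In the average over the days Acta2 (1.16), Tagln (0.76) and Rgs5 (0.16) were called as higher. Mylk made up 60.7% of the sum, which therefore says little about the other 6. Of 13 endothelial markers, Kdr was lower at day 6 (-0.37) and day 12 (-0.27) and Vwf higher at day 12 (0.60), with Stab2 as the most abundant. Of 12 hepatocyte markers, Alb (-0.67), Apoa2 (-0.77) and Ttr (-0.64) were lower at day 6, with Alb making up 67.1% of the sum. Of 8 Kupffer cell and macrophage markers, Cd68 (0.88) and Csf1r (0.45) were higher at day 6, with Cd5l as the most abundant. Of 8 lymphocyte markers, Ptprc (86.1% of the sum) was higher at day 6 (1.04) and day 12 (0.60) and Ms4a1 lower at day 3 (-1.68), and the other 6 were called at no day. All leukocytes express Ptprc, Kupffer cells and macrophages included, so the lymphocyte sum here is mostly a measure of leukocytes in general. In the average over the days, 36.4% of tested genes were called. Among endothelial markers 1 was then higher and 4 lower, and among hepatocyte markers 5 were lower. Of the Kupffer cell and macrophage, cholangiocyte and lymphocyte markers, 5, 8 and 1 were called as higher. Of the stellate cell and fibroblast markers 9 were higher and 1 lower.

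The summed levels themselves passed the test at no day, but the groups are small for it. The lowest p this test can give is 0.00794 at days 3 and 6, 0.00216 at day 12 and 0.0179 at day 21, so that no sum could pass by itself after adjustment over 28 comparisons, and the lack of calls does not show that the sums were equal. Of 28 comparisons of a list at a day, 0 had an adjusted p under 0.05 in the exact permutation test (two-sided), and 11 had an unadjusted p under 0.05. The cholangiocyte sum was 0.30 higher in HNKO livers at day 12 (exact p = 0.0303) and 0.31 higher at day 21 (exact p = 0.0357), each with an adjusted p of 0.0909, and its difference at day 6 was 0.11 (exact p = 0.349). At day 12 HNKO library 35 stood at 8.70, and the other HNKO livers between 7.99 and 8.20. The stellate cell and fibroblast sum at day 6 was 0.80 higher in HNKO livers, with 5 of 5 above all WT livers (exact p = 0.0238, adjusted p = 0.0833), and at day 21 it was 0.65 higher (exact p = 0.0357, adjusted p = 0.0909). HNKO library 37 then stood at 10.43, and the other HNKO livers at 9.31 and 9.89. Differences without single libraries were not computed for the sums. The hepatocyte sum was lower at day 3 (difference -0.42, exact p = 0.0238), day 6 (-0.56, exact p = 0.0159) and day 12 (-0.29, exact p = 0.00866), each with an adjusted p of 0.0833. The lymphocyte sum was higher at day 6 (0.89, exact p = 0.0159), day 12 (0.57, exact p = 0.00649) and day 21 (0.63, exact p = 0.0179), and the Kupffer cell and macrophage sum at day 6 (0.42, exact p = 0.0238), again with an adjusted p of 0.0833.

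Between mice of the same group, Notch3 and Jag1 varied with the stellate cell and fibroblast sum. Levels were taken as deviations from their group mean, and 7 of 70 relations of a member with a list had an adjusted permutation p under 0.05. Notch3 with the stellate cell and fibroblast sum gave Pearson r = 0.644 (permutation p = 7.00e-05, adjusted p = 0.00490) and Spearman rho = 0.716 (permutation p = 5.00e-05, adjusted p = 0.00350) over 38 libraries. Without the 2 libraries farthest from the median sum, r was 0.622 (adjusted permutation p = 0.00420), and within the libraries numbered 1 to 21 and 22 to 41 it was 0.728 and 0.789. The relation of Notch3 was thus of like size in each. Jag1 with the same sum gave r = 0.710 (permutation p = 5.10e-04, adjusted p = 0.0140) and rho = 0.608 (permutation p = 0.00186, adjusted p = 0.0279), and r = 0.833 and 0.836 within the number series. Without the 2 farthest libraries, HNKO libraries 23 and 29, r of Jag1 was 0.602 and no longer passed (permutation p = 0.00802, adjusted permutation p = 0.0936).

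Since the sum varied far more among HNKO livers, the genotypes were also taken apart, a choice made after seeing the data. Among 19 HNKO libraries the r with the stellate cell and fibroblast sum was 0.818 for Notch3 (permutation p = 6.10e-04, adjusted p = 0.0142; rho = 0.791, permutation p = 0.00181) and 0.826 for Jag1 (permutation p = 4.70e-04, adjusted p = 0.0142; rho = 0.872, permutation p = 1.80e-04). Among 19 WT libraries it was 0.517 for Notch3 (permutation p = 0.0226, adjusted p = 0.316; rho = 0.421, permutation p = 0.103) and -0.0318 for Jag1 (permutation p = 0.904, adjusted p = 0.965; rho = 0.0351, permutation p = 0.896). The relation of Jag1 was thus seen in HNKO livers, and the difference between the genotypes was not tested.

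**Figure D4:**
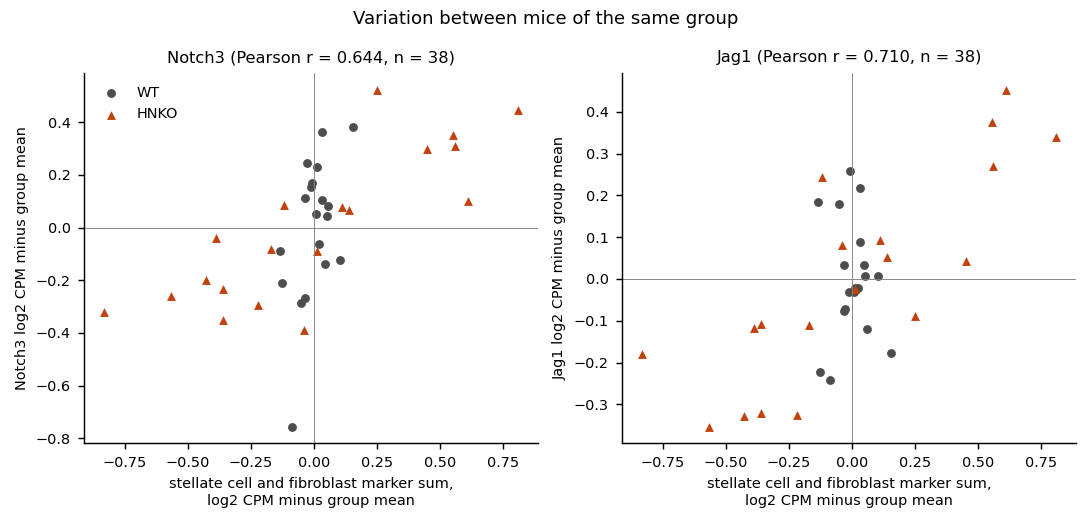
Notch3 (left) and Jag1 (right) against the summed stellate cell and fibroblast markers, each as log2 CPM minus the mean of its group of genotype and day, in 19 WT (grey circles) and 19 HNKO (orange triangles) libraries. Pearson r over the 38 libraries is 0.644 for Notch3 and 0.710 for Jag1, and the WT points cover a narrow range of the marker sum.

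The other relations called were those of Jag1 with the cholangiocyte sum (r = 0.551, permutation p = 7.10e-04, adjusted p = 0.0140; rho = 0.524, permutation p = 0.00200, adjusted p = 0.0279), the lymphocyte sum, which is mostly Ptprc (r = 0.536, permutation p = 0.00361, adjusted p = 0.0373; rho = 0.516, permutation p = 0.00440, adjusted p = 0.0440) and the hepatocyte sum (r = -0.573, permutation p = 0.00373, adjusted p = 0.0373; rho = -0.472, permutation p = 0.00857, adjusted p = 0.0667), the last of which did not pass by rho. Heyl was related to the lymphocyte sum (r = 0.567, permutation p = 8.00e-04, adjusted p = 0.0140; rho = 0.591, permutation p = 3.70e-04, adjusted p = 0.0129) and to the hepatocyte sum (r = -0.549, permutation p = 0.00211, adjusted p = 0.0295; rho = -0.581, permutation p = 5.60e-04, adjusted p = 0.0131). Without the 2 farthest libraries these values of r were 0.537, 0.541, -0.367, 0.531 and -0.436, in the same order, and none of the 5 kept an adjusted permutation p under 0.05. The r of Jag1 with the cholangiocyte and lymphocyte sums and of Heyl with the lymphocyte sum changed little there, and the r of both genes with the hepatocyte sum came nearer to 0. The cholangiocyte sum is mostly Aqp1, which endothelial cells also express. The vascular smooth muscle cell and pericyte sum is mostly Mylk. The relation of Dll4 with this sum did not pass over the 38 libraries by Pearson r (-0.414, permutation p = 0.0230, adjusted p = 0.129). The relation did pass by Spearman rho (-0.536, permutation p = 0.00239, adjusted p = 0.0279). Its r was -0.349 within library numbers 1 to 21 and -0.209 within 22 to 41. Among HNKO libraries it was -0.193, and among WT libraries -0.717. For the 5 relations of Jag1 and Heyl, in the same order as before, r within library numbers 1 to 21 was 0.154, 0.231, -0.272, 0.496 and -0.448, and within 22 to 41 it was 0.675, 0.689, -0.883, 0.799 and -0.753.

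The genes whose levels ran most like those of each member were ranked by Pearson r of the deviations from the group means over 38 libraries, given as a description. For Notch3 these were Col5a2 (r = 0.786), a chain of a fibrillar collagen, and G530011O06Rik (0.768). Col5a2 was itself higher in HNKO livers at each day, by 1.27, 2.23, 1.37 and 1.81. For Jag1 they were Rasa2 (0.870) and Enc1 (0.834), and for Jag2 Runx1t1 and Shroom3 (0.715 each). For Notch4 they were Acvrl1 (0.720), a receptor of endothelial cells, and the member Heyl (0.636). For Heyl they were Capn2 (0.831) and Gm20559 (0.806), for Hes1 Pim1 (0.747) and Sertad3 (0.632), for Hey1 Ifi209 (0.658) and Gm44532 (0.657), for Dll4 Zfp26 (0.840) and Ccng2 (0.819), for Notch1 Epha2 (0.830) and Eps8l2 (0.789), and for Notch2 Diaph1 (0.797) and Tap1 (0.689). Among the members themselves the highest r was that of Notch1 with Heyl (0.702), followed by Notch4 with Heyl (0.636) and Notch1 with Notch2 (0.601).

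Promoter windows of 300 bases (250 before and 50 after the gene start; RefSeq, GRCm38.p6) were at hand for 7 of 10 members, the 5 members called at a day with Notch1 and Dll4. The motif TGGGAA, the core that RBPJ binds, was searched on both strands. It was in 0 of these 7 windows and in 25.6% of the 32851 windows of the table, and these letters may lie outside the windows. The RefSeq start used for the windows differs from the gene coordinates given above: by 12841 bases for Notch1 and 281 for Jag2, whose windows lie wholly inside the gene as given there, and by at most 124 for the other 5. Hes1, Hey1 and Heyl had no entry.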

How the data were processed

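The authors aligned total RNA reads with STAR 2.7.2b and counted them per gene with featureCounts 1.6.4, as their processing notes state, and used edgeR 3.26.0. The deposited values are raw read counts per gene in 40 liver libraries. Of these, 2 libraries described as having failed quality control were left out. Total counts ran from 16151037 to 64181492 in the 38 libraries used. Genes were kept by filterByExpr at its defaults (minimum count 10, minimum total 15, proportion 0.7). edgeR 4.0.16 in R 4.3.3 fitted 1 mean for each of 8 groups of genotype and day by quasi-likelihood, with Benjamini-Hochberg adjustment over 20297 genes in each contrast. Log2 CPM used a prior count of 2. The edgeR procedure was run on simulated data with planted changes larger than those of the members. That run does not show how well differences of the members' size are found. Summed markers were compared by exact permutation tests, adjusted over 28, and relations by 100000 permutations within groups, adjusted over 70, with scipy 1.17.1 and numpy 2.4.6. Series of library numbers, which the labels do not explain, were taken apart as well. Alternatives were other scaling, DESeq2 1.42.0, other filters, all 40 libraries, other edgeR settings, the series as a term, each day alone and leaving out each library. Taking the genotypes apart, and marker sums with all 40 libraries, were added after seeing the data. Named genes were the 10 members, Nampt, other pathway genes called at a day or in the average, and for each member the 2 most like genes; 1 pathway gene and 1 marker gene of these lists are not reported here. The members and lists were chosen with earlier results of these data known.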

Additional observations from a re-analysis of the deposited data

Results flagged for a closer look

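The 10 genes in each of 7 groups of 4 to 6 libraries give 70 sets of values. In 2 of them (2.86%) the gap between the lowest or highest library and its nearest neighbour, as a share of the range of the group, was above Dixon's 95% critical value; chance gives about 1 in 20. Notch3 was at 1.14 log2 CPM in WT library 5 at day 3, while the other 4 WT libraries of that day stood between 1.94 and 2.26. Jag2 was at -1.97 log2 CPM in WT library 33 at day 12, while the other 4 stood between -1.48 and -1.30.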

How the results depend on the processing

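The call of Jag1 at day 3 held under all 9 alternative settings, and the count of 0 for the interaction and the call of Notch2 over the days in WT livers under the 8 that hold all days; all 3 held in all 38 fits that each left out 1 library. At day 6 the members called went from 5 to 6 with DESeq2, as Heyl was gained, to 4 with no filter beyond 1 count (Notch2 lost), to 2 with all 40 libraries (Jag1 and Notch3) and to 3 with only the 2 groups of the day (Jag1, Notch3 and Notch4); leaving out each library gave 3 to 6. At day 12 they went from 1 to 2 with DESeq2 (Notch2 gained), to 2 with at least 10 counts in every library (Notch2 gained), to 2 with the number series as a term (Jag1 gained) and to 0 with all 40 libraries, and leaving out each library gave 0 to 3. With all 40 libraries they went from 0 to 1 at day 21 (Jag1, 0.50, adjusted p = 0.0304). In the average they went from 7 to 4, as Notch4 (edgeR adjusted p = 0.210), Hey1 (0.129) and Heyl (0.124) were lost. Over the days in HNKO livers they went from 2 to 1 with no filter beyond 1 count and to 1 with all 40 libraries, as Notch3 was lost; leaving out each library gave 1 to 2. For the relations with marker sums, 7 calls became 2 without the 2 libraries farthest from the median (1 of the 7, Notch3 with the stellate cell and fibroblast sum, and, newly, Dll4 with the vascular smooth muscle cell and pericyte sum, r = -0.545, adjusted permutation p = 0.0416), 0 within library numbers 1 to 21, 0 within 22 to 41 and, in a split chosen after seeing the data, 1 within WT libraries, which was none of the 7 (Dll4 with the vascular smooth muscle cell and pericyte sum, r = -0.717, adjusted permutation p = 0.0378), and 5 within HNKO libraries, all among the 7. The r of Dll4 with the vascular smooth muscle cell and pericyte sum was nearer to 0 in the other splits. It was -0.349 within library numbers 1 to 21, -0.209 within 22 to 41 and -0.193 within HNKO libraries. Within WT libraries the sign of r turned for Jag1 with the stellate cell and fibroblast sum (-0.0318) and with the hepatocyte sum (0.0481). These splits hold fewer libraries, and the cause of the lost calls and turned signs was not tested. At least 10 counts in every library removed Jag2 and Hey1, which have few reads, so these gave no value there. No member called in any of these fits changed its direction.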

Other observations

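The 2 HNKO libraries of day 21 described as having failed quality control were used only in the alternatives with all 40 libraries. In library 17 Jag1 stood at 4.02 log2 CPM and Jag2 at 1.82, while Dll4, Hey1 and Heyl had 0 counts and Hes1 had 37. In library 18 Jag1 stood at 4.05 and Dll4 at 2.73, while Jag2 had 0 counts. Notch2 stood at 7.53 and 7.50 in these libraries, close to the 7.31 to 7.55 of the 3 HNKO libraries used at that day.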
